A study of Mus musculus with 16 samples.

Results

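Collagens form the main structural proteins of the extracellular matrix, and the 41 collagen genes described here were taken from the 56748 genes of the deposited table as those with a symbol of the form Col, number, a, number and a protein-coding entry, without the 3 genes of type IX collagen. RNA came from the LMMP, the outer muscle layer carrying the myenteric plexus, peeled from the proximal and the distal colon. The HSCR mice were Ednrb-/- animals, homozygous for the disrupted endothelin B receptor allele Ednrb tm1Ywa on a hybrid C57BL6/J-129Sv background, and the WT mice were their Ednrb+/+ littermates, all 2 to 4 weeks old. HSCR stands for Hirschsprung disease, in which the distal bowel lacks ganglia, and the mutation is present in every cell of the HSCR mice. Each of the 4 groups (WT proximal, HSCR proximal, WT distal and HSCR distal) had 4 poly-A libraries, and every mean ± SD below is over n = 4 libraries. The labels do not say whether the proximal and distal pieces of a number came from 1 mouse. In the library names, pieces numbered 1 and 2 share a number across the segments of a genotype, and those numbered 3 and 4 do not. What the shared number stands for is not said.

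Collagen chains wind around each other into a triple helix, and the chains of one type are made together in the endoplasmic reticulum before export. Fibrillar collagens (types I, II, III, V, XI, XXIV and XXVII) build the banded fibers that carry tension, with types I and III as the bulk of the gut wall and types V and XI as the chains that seed fibrils and set their width. Type IV collagen forms the sheet of the basement membrane around muscle cells, vessels, nerves and ganglia, and types VII, XV and XVIII anchor or edge it. Type VI collagen forms beaded microfibrils between cells and that sheet, and the remaining types coat fibrils, form short-chain networks or span the cell membrane.

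The libraries held between 21384372 and 45831881 counted reads. Values in CPM are the deposited read counts brought to one common library total with TMM factors over the 16 libraries, and values in FPKM are the deposited levels per length. Ednrb, the targeted gene, measured 67.7, 33.9, 64.2 and 53.0 CPM in the WT proximal, 7.85, 12.6, 36.3 and 35.8 in the HSCR proximal, 12.2, 16.1, 28.3 and 40.2 in the WT distal and 97.0, 5.55, 5.83 and 9.57 in the HSCR distal libraries 1 to 4. These counts cover the whole gene and do not separate its disrupted part, so they check the genotype only loosely. The library labelled HSCR distal 1 went against its label, with the highest Ednrb of the 16 and with 0.629 CPM of Hoxd13, a gene of the hindmost gut that measured 112 to 201 CPM in the WT distal libraries. The library labelled HSCR proximal 1 also went against its label, with 125 CPM of Hoxd13 against 0.643 to 2.49 in the other HSCR proximal libraries. HSCR distal 4 held only 14.1 CPM of Hoxd13, inside the WT proximal range of 0.904 to 23.9. Its Hoxd12 (0.738 CPM) and Hoxb13 (0.0461) were also below every WT distal library, whereas its Hoxa13 (41.2) and Hoxd10 (44.4) were above them all. The position of this library is thus unclear from these genes. Hoxd12 was at 38.2 CPM in HSCR proximal 1, where WT distal libraries ran from 10.9 to 20.5. Hoxb13 was instead at 37.0 CPM in HSCR proximal 2 and at 1.28 in HSCR proximal 1. It ran from 1.27 to 85.6 in WT distal libraries and reached 1.18 in WT proximal ones. HSCR distal 1 and HSCR proximal 1 keep here the names on their labels, and whether these 2 labels were exchanged, which would alter the members of both HSCR groups, was not tested. Smooth muscle markers of the LMMP were present in every library, at a summed 30201 to 80297 CPM in the WT proximal group, but were at 4525 in HSCR proximal 2, which also had the highest epithelial sum, 14265 CPM. WT distal 2 had the lowest smooth muscle sum of the WT libraries, 24430 CPM. It also held 537 CPM of pancreatic acinar markers, which reached at most 23.5 in any other library. Results that rest on HSCR distal 1, HSCR proximal 1 or HSCR proximal 2 are given without them too where that moved a count or a direction. Leaving out WT distal 2 entered only the ranges over single libraries left out. In bulk tissue, fewer cells of a type and less RNA per cell cannot be told apart.

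Of the 41 genes, 33 matched a RefSeq start-site window (assembly GRCm38.p6, from 250 bases before to 50 bases after the start), with 35 windows in all. The stretch where the divergent Col4a1 and Col4a2 genes begin is shown because these 2 genes kept the steadiest ratio of any pair below. Their RefSeq first bases lie at chr8:11312826 (Col4a1, minus strand) and chr8:11312805 (Col4a2, plus strand), so the annotated transcripts overlap by 22 bases. The 30 bases around both starts (plus strand, GRCm38.p6 chr8:11312801-11312830, spanning both annotated starts) and the 120 bases before the start of Col3a1, the collagen of highest FPKM in 9 of 16 libraries (plus strand, GRCm38.p6 chr1:45311418-45311537, no exon annotated), read as follows, with a searched motif in capitals.
Col4a1/Col4a2: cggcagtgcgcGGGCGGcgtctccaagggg
Col3a1: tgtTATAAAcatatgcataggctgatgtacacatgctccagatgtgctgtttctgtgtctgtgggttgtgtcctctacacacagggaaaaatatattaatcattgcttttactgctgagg
Of 3 motifs searched on both strands, the GC box core GGGCGG was in 22 of the 35 collagen windows (62.9%) against 35.7% of all 32851 windows. CCAAT was in 34.3% against 37.4%, and TATAAA in 14.3% against 13.6%. A match is a description of these windows and no test of binding.

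Collagen transcripts were dominated by few genes. Per length, Col1a1 (438 FPKM over 16 libraries) and Col3a1 (414) led, followed by Col4a1 (256), Col6a1 (217), Col4a2 (195) and Col1a2 (151), and these 6 held 80.1% of the summed collagen FPKM. A further 9 genes lay from 10 to 100 FPKM, namely Col6a2 (89.2), Col5a1 (57.4), Col6a3 (50.3), Col5a2 (45.4), Col16a1 (28.5), Col18a1 (24.0), Col15a1 (21.4), Col4a5 (20.1) and Col12a1 (13.5). Another 12 lay between 1 and 10, from Col5a3 (9.96) through Col23a1 (9.53), Col14a1 (9.26), Col8a1 (6.95), Col27a1 (5.94), Col28a1 (4.43), Col20a1 (4.17), Col4a6 (3.17), Col8a2 (2.80), Col13a1 (1.69) and Col11a1 (1.55) to Col25a1 (1.07). The remaining 14 had a mean of at most 1 FPKM. Neighbors in this order often changed place. Col1a1 exceeded Col3a1 in 6 of 16 libraries and Col4a1 exceeded Col6a1 in 9 of 16, whereas Col3a1 exceeded Col4a1 in 15 and Col1a2 exceeded Col6a2 in all 16.

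**Figure D1:**
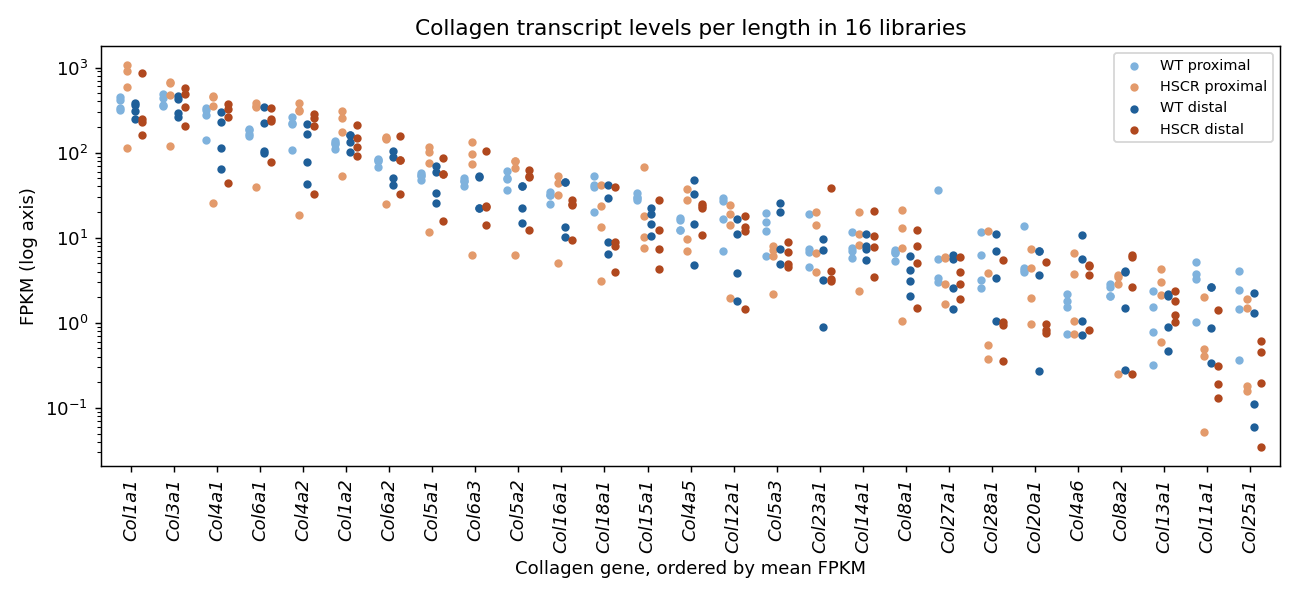
Level per length of the 27 collagen genes with a mean above 1 FPKM, ordered from left to right by their mean, with 1 point per library on a log axis and colors for the 4 groups of 4 libraries. The genes span from 438 to 1.07 FPKM on average, and a single gene spreads widely too, Col1a1 from 114 to 1070.1 FPKM.

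Summed over all 41 genes, collagen counts measured 15327, 13444, 17610.3 and 18190.3 CPM in WT proximal, 31665, 3859, 27228 and 25695 in HSCR proximal, 10321, 8349, 17083 and 18492 in WT distal and 26019.5, 6638, 15793 and 15954 in HSCR distal libraries 1 to 4. HSCR proximal held the 2 extremes of the series, libraries 1 and 2, and its other libraries lay above all 4 WT proximal values. HSCR distal 1 was the highest of the distal libraries and HSCR distal 2 the lowest, with libraries 3 and 4 inside the WT distal range.

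Fibrillar genes gave the largest share, 9382 ± 1058 CPM in WT proximal, 13339 ± 7446 in HSCR proximal, 8408 ± 2085 in WT distal and 9521 ± 4620.4 in HSCR distal (mean ± SD). Basement membrane genes gave 3979 ± 1205, 4739 ± 2930.1, 2692 ± 1707 and 3684 ± 2052 CPM in the same order. Microfibrillar genes gave 1989.7 ± 171, 3251 ± 1862, 1927 ± 999 and 2297 ± 1381 CPM, and the 15 other genes 792 ± 156, 783 ± 461, 535 ± 306 and 598 ± 296. The SD in both HSCR segments exceeded the difference of the means from WT in each class.

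**Figure D2:**
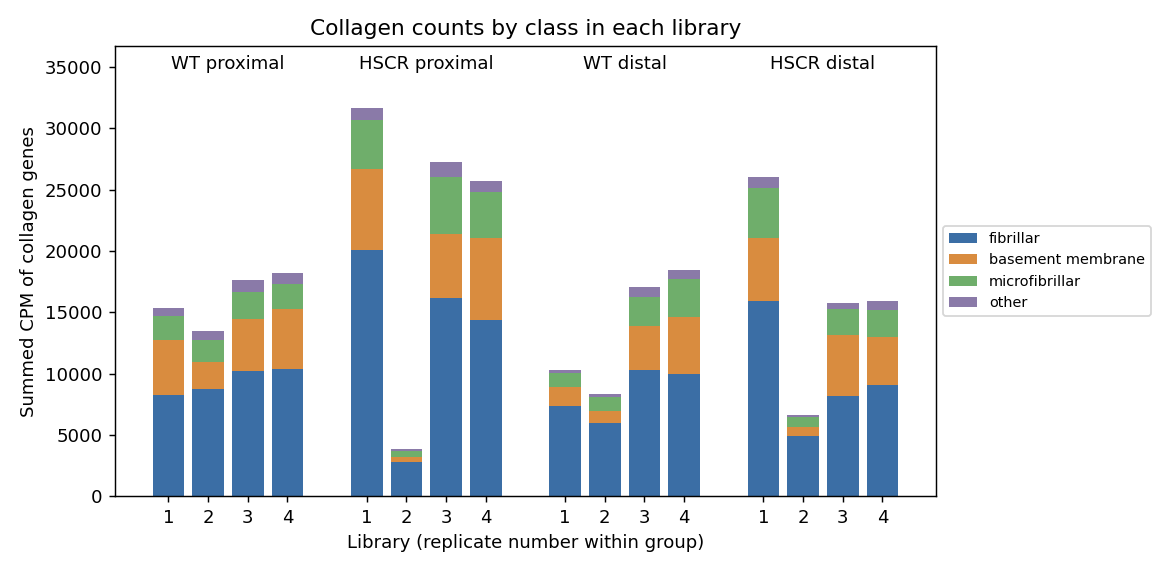
Summed CPM of the 41 collagen genes in each library, stacked by class, with libraries numbered within their group. HSCR proximal 2 stands at 3859 CPM and HSCR distal 2 at 6638, below every WT library, while fibrillar genes form the tallest part of every bar.

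As a share of collagen FPKM, which compares genes per length, fibrillar genes held 57.9 ± 9.77% in WT distal and 54.2 ± 10.8% in HSCR distal libraries. Basement membrane genes held 20.7 ± 6.16% and 24.3 ± 9.45%, and microfibrillar genes 17.4 ± 3.49% and 17.6 ± 1.75%. In the proximal colon the fibrillar share was 52.6 ± 4.27% in WT and 57.2 ± 6.75% in HSCR mice, and the basement membrane share 27.5 ± 6.02% and 21.9 ± 6.13%.

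The distal comparison asked how collagen transcripts differ where the HSCR colon lacks ganglia. No collagen gene passed the thresholds used here between HSCR and WT distal colon in edgeR's quasi-likelihood test. Of the 39 that passed the filter on low counts, 0 were called (log2 fold change beyond 1 and adjusted p under 0.05 by edgeR's quasi-likelihood test, over 17059 genes) against a background of 0%, and 0 had even an unadjusted p under 0.05, where 0.879% of all genes did so as higher and 1.76% as lower. DESeq2 called 0 collagen genes here and gave an unadjusted p under 0.05 to 1, Col5a3. After removal of 4 factors of unwanted variation estimated from the residuals of these same libraries (RUVr), edgeR's likelihood ratio test called 2, Col11a1 (-1.95 ± 0.39, adjusted p = 2.88e-05) and Col28a1 (-1.78 ± 0.34, adjusted p = 1.11e-05), both lower in HSCR, where it called 6.65% of all genes. The factors were fitted to the spread within groups, so SE and adjusted p with RUVr cannot be set beside those of the main test. Without HSCR distal 4, 0 collagens were called and 0 had an unadjusted p under 0.05, beside 1.28% (higher) and 1.33% (lower) of all genes. No collagen gene had groups that did not overlap, against 1.82% of all genes. The median log2 fold change of the collagens was 0.03, beside 0.04 over all genes, with 21 of 39 above 0, where 53.9% of all genes were.

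Among fibrillar genes, Col1a1 (ENSMUSG00000001506, mm39 chr11:94827050-94843868), the α1 chain of type I collagen, measured 2379, 1645, 2518 and 2109 CPM in WT distal and 5869, 1480.2, 1709 and 1121 in HSCR distal libraries. Only HSCR distal 1 was above the WT range, and 2 of the other 3 were below it. The log2 fold change was 0.22 ± 0.54 (SE, adjusted p = 1.00) with edgeR's quasi-likelihood test, and -0.62 ± 0.33 without HSCR distal 1. Col1a2, its α2 partner, measured 1633, 1277, 2024 and 2098 CPM in WT and 2731, 1128, 1896 and 1557 in HSCR libraries, so the groups overlapped (log2 fold change 0.03 ± 0.36). Col3a1, the sole chain of type III collagen, measured 2825, 2579.8, 4613 and 4402 and 5796, 1994, 3492 and 5184 CPM (log2 fold change 0.16 ± 0.43), with HSCR libraries on either side of the WT range.

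Type V collagen showed its 3 chains at different ratios. Col5a1 measured 409.9 ± 186 CPM in WT distal and 476 ± 259.9 in HSCR distal libraries (log2 fold change 0.18 ± 0.53), and Col5a2 289.9 ± 134 and 448 ± 226 (0.59 ± 0.54). Col5a3 (mm39 chr9:20681346-20726363), the rarer α3 chain, measured 32.9, 50.3, 139 and 181 CPM in WT and 62.3, 32.9, 32.1 and 49.996 in HSCR libraries. WT libraries 3 and 4 were above every HSCR library and WT 1 and 2 lay among them. Its log2 fold change, -1.21 ± 0.55, had the smallest unadjusted p of the collagens in edgeR's quasi-likelihood test (0.0538, adjusted 1.00), and the exact permutation test gave p = 0.229, where 4 against 4 allows no p below 0.0286. Col11a1 (mm39 chr3:113824189-114014367), a fibril-seeding chain, measured 4.24, 11.2, 34.3 and 35.3 CPM in WT and 18.7, 3.87, 2.51 and 1.78 in HSCR libraries (log2 fold change -1.69 ± 0.92, adjusted p = 1.00 by edgeR's quasi-likelihood test). HSCR distal 1 was again the highest of its group and lay inside the WT range, with the other 3 below all 4 WT libraries. Col27a1 measured 53.2 ± 31.4 CPM in WT and 49.4 ± 24.7 in HSCR libraries (-0.14 ± 0.54).

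Of the basement membrane genes, Col4a1 (mm39 chr8:11248423-11362826) measured 835, 491, 1712 and 2363 CPM in WT distal and 2531, 319.5, 2929.8 and 2121 in HSCR distal libraries, and Col4a2 512, 288, 1121 and 1506 and 1912, 211, 1761 and 1443. HSCR distal 2 was the lowest of the distal libraries for both chains and the other 3 lay above 3 of the 4 WT libraries. The log2 fold changes were 0.51 ± 0.69 and 0.59 ± 0.70 (SE), with adjusted p = 1.00 for both in edgeR's quasi-likelihood test. Their X-linked relatives Col4a5 (173 ± 135 CPM in WT, 142 ± 48.5 in HSCR) and Col4a6 (37.5 ± 39.4 and 29.2 ± 15.8) had log2 fold changes of -0.32 ± 0.63 and -0.41 ± 0.88. Col18a1, the precursor of endostatin, measured 155 ± 121 CPM in WT and 110.1 ± 119.6 in HSCR libraries (-0.53 ± 0.83), and Col15a1, its close relative, 108 ± 34.5 and 84.2 ± 68.5 (-0.37 ± 0.55). Of the 9 genes of this class, 4 were above 0 and 5 below, with a median log2 fold change of -0.32.

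Microfibrillar genes were close between the distal groups at their main chains. Col6a1 measured 431, 463, 978 and 1559 CPM in WT and 1489, 334, 1079 and 1177 in HSCR libraries (log2 fold change 0.22 ± 0.56), Col6a2 609 ± 270.2 and 764 ± 446 (0.30 ± 0.51), and Col6a3 454 ± 214 and 509 ± 517 (0.14 ± 0.66). Each SE exceeded the fold change itself. Of the other genes of this class, Col6a5 had a log2 fold change of -1.90 ± 1.29 with at most 4.63 CPM in a WT distal library.

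The fibril-associated, short-chain and membrane-spanning genes went in no common direction in the distal colon, with 7 of the 14 tested above 0. Col16a1 (log2 fold change -0.41 ± 0.57), Col12a1 (0.39 ± 0.82), Col14a1 (0.45 ± 0.49), Col8a2 (0.62 ± 0.98), Col8a1 (0.82 ± 0.59) and Col13a1 (0.19 ± 0.58) were each within 1.5 SE of 0. Col23a1, a membrane-spanning collagen, measured 5.04, 18.8, 41.8 and 58.5 CPM in WT and 24.3, 17.4, 19.5 and 238 in HSCR libraries, with HSCR distal 4 alone above the WT range (log2 fold change 1.23 ± 1.02, and -0.64 ± 0.72 without that library). Col25a1, a membrane-spanning collagen made by neurons, measured 0.768, 1.47, 17.4 and 30.2 CPM in WT and 8.21, 0.447, 2.64 and 6.34 in HSCR libraries (-1.54 ± 1.19, and -0.64 ± 1.23 without WT distal 4), and the groups overlapped.

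**Figure D3:**
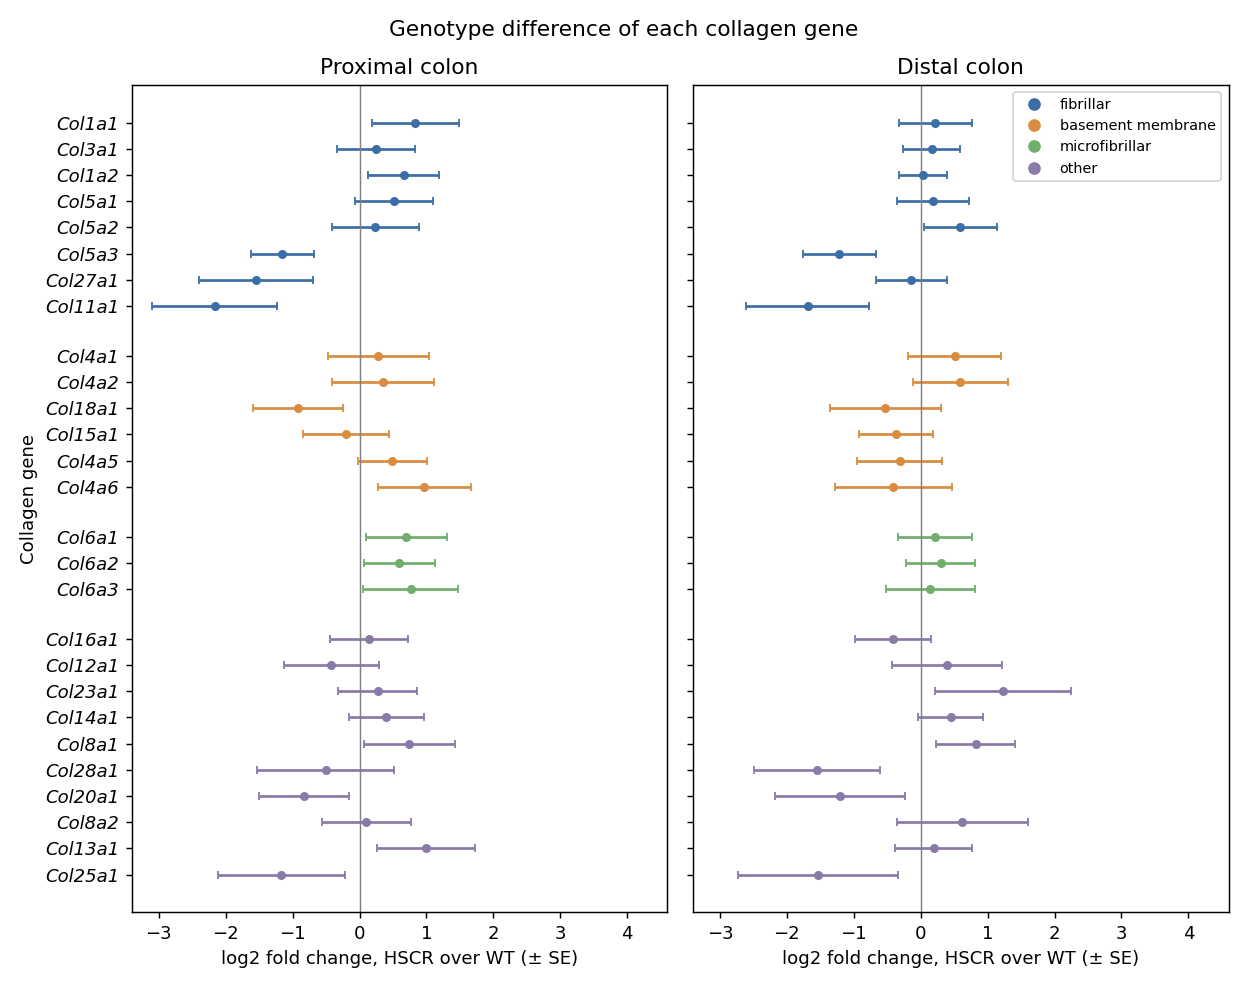
Log2 fold change of HSCR over WT for the 27 collagen genes above 1 FPKM, with an SE derived from edgeR's quasi-likelihood F statistic. The proximal colon is on the left and the distal on the right, 4 against 4 libraries each, colored by class. Col5a3 lies at -1.15 and -1.21 and Col11a1 at -2.17 and -1.69, while Col1a1, Col1a2, Col3a1, Col4a1, Col4a2 and Col6a1 to Col6a3 lie between 0.03 and 0.84.

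Without the library labelled HSCR distal 1, more collagens had a small unadjusted p. Of 41 collagens then tested, 7 had an unadjusted p under 0.05 as lower and 0 as higher, beside 4.13% and 1.11% of all genes, and 0 were called (smallest adjusted p 0.813, edgeR's quasi-likelihood test). The 7 were Col11a1 (log2 fold change -3.01 ± 0.82), Col28a1 (-2.88 ± 0.85), Col6a5 (-3.85 ± 1.28), Col20a1 (-2.41 ± 0.94), Col15a1 (-1.10 ± 0.43), Col26a1 (-2.01 ± 0.79) and Col5a3 (-1.44 ± 0.62). The groups did not overlap for Col11a1, Col26a1, Col6a5 and Col22a1, all lower in HSCR, where 3.21% of all genes were separate and lower and 2.2% separate and higher. The median collagen log2 fold change moved from 0.03 to -0.16.

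Col28a1, a collagen known from glia and Schwann cells of peripheral nerves, measured 5.14, 16.5, 55.1 and 35.7 CPM in WT distal and 27.4, 1.71, 4.78 and 5.40 in HSCR distal libraries. HSCR distal 1 lay within the WT range and the others near or below the lowest WT library (with all 4 libraries, log2 fold change -1.55 ± 0.94, adjusted p = 1.00 by edgeR's quasi-likelihood test). Col20a1, a fibril-associated collagen, measured 1.40, 18.8, 36.3 and 37.2 and 27.7, 3.80, 4.42 and 5.40 CPM (-1.21 ± 0.97), with WT distal 1 the lowest of the 8. Col15a1 measured 92.1, 67.2, 144 and 127 CPM in WT and 183, 76.6, 48.5 and 29.1 in HSCR libraries, with HSCR distal 1 the highest and HSCR distal 3 and 4 the lowest of the 8.

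Enteric neuron markers were read in the same libraries. All 10 of the list had a lower mean in HSCR distal than in WT distal libraries. Their summed level was 94.6 to 2227 CPM in WT distal, 17.2 to 86.1 in HSCR distal 2 to 4 and 1246 in HSCR distal 1. Chat was at 0 in all 4 HSCR distal libraries and also in WT distal 1. Enteric glia markers had a lower mean for 6 of 7, with sums of 147 to 489 CPM in WT distal and 57.9 to 265 in HSCR distal libraries. All 8 epithelial markers had a higher mean in HSCR distal libraries (129 to 2266 CPM in WT against 114 to 5080 in HSCR). The part of these cells in the collagen values was not tested.

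**Figure D4:**
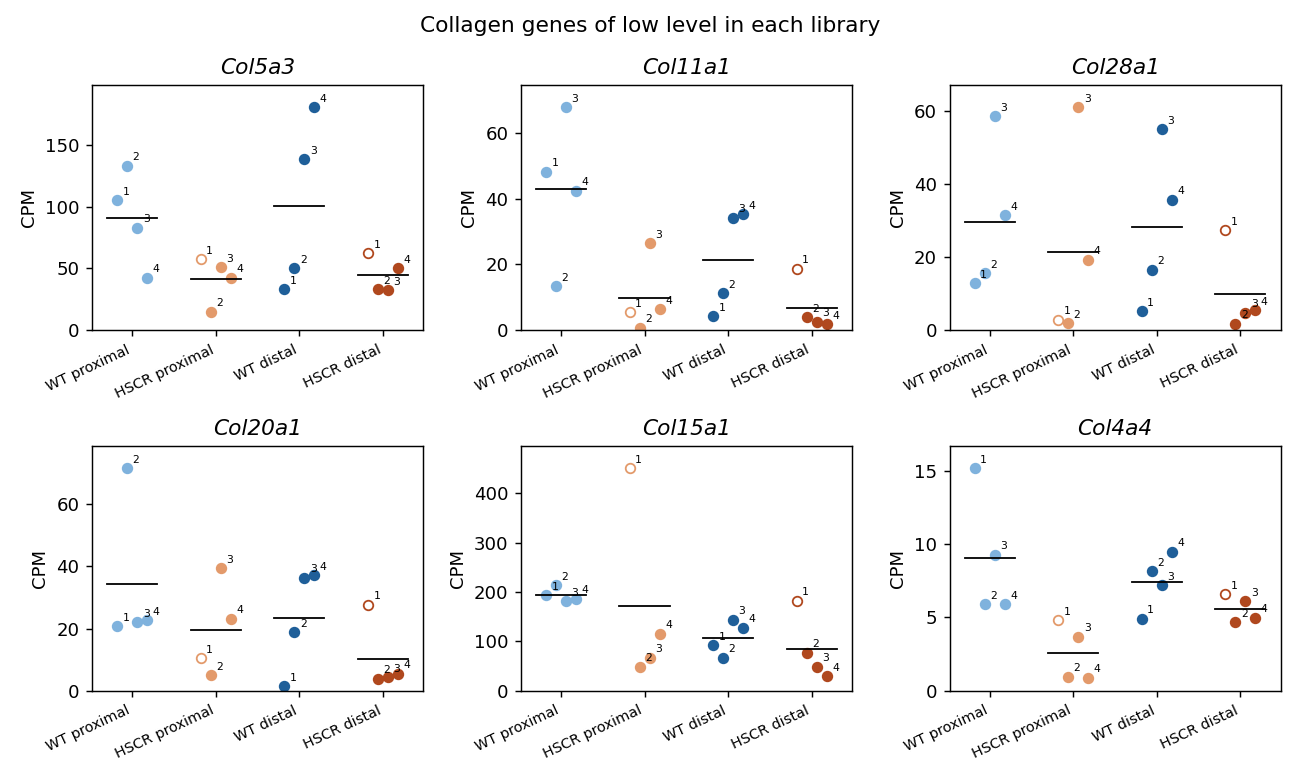
CPM of 6 collagen genes of low level in each library, numbered within the group, with the group mean as a line and the HSCR libraries numbered 1 as open circles. In the HSCR distal group the open circle stands at 18.7 CPM for Col11a1, 27.4 for Col28a1 and 27.7 for Col20a1, above the 3 filled circles.

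Library names fall in 2 styles, with 2 libraries of each group in each style, and differences were also taken within each style. The second style pools 2 prefixes. CM names WT proximal 3 and 4 and HSCR proximal 4, and LC names HSCR proximal 3 and the distal libraries 3 and 4. Prefix is thus not balanced over segment or proximal genotype, and a difference between prefixes cannot be separated from these within the second style. The mean log2 CPM difference of HSCR minus WT for Col11a1 was 0.30 in the first style (libraries 1 and 2) and -3.75 in the second (libraries 3 and 4). For Col5a3 it was 0.15 and -1.97, for Col28a1 -0.32 and -3.01, and for Col1a1 0.58 and -0.73. The first style holds HSCR distal 1 and HSCR proximal 1, which went against their labels.

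The proximal comparison asked the same of the segment that the study describes as ganglionic, although neuron markers were low in some of its HSCR libraries (given below). Again 0 of 38 collagens tested were called (background 0% of 16664 genes), and DESeq2 gave calls to 181 genes in all with no collagen among them. RUVr called 8 collagens (background 16.2%), of which Col5a3 (-1.16 ± 0.26), Col11a1 (-2.63 ± 0.59), Col4a4 (-1.98 ± 0.52), Col18a1 (-1.27 ± 0.36), Col25a1 (-1.43 ± 0.33) and Col6a6 (-3.75 ± 0.97) were lower and Col13a1 (1.22 ± 0.46) and Col6a5 (3.15 ± 0.90) higher in HSCR. For Col6a6 the direction turned, as its fold change without RUVr was 0.42 ± 1.71. At an unadjusted p under 0.05, 0 collagens were higher and 3 lower, beside 2.48% and 4.13% of all genes. The 3 were Col4a4, Col5a3 and Col11a1, each with an adjusted p of 0.747 in edgeR's quasi-likelihood test. The collagen median was 0.37 beside 0.04 over all genes, with 27 of 38 above 0, where 53.2% of all genes were. Without HSCR proximal 1, the median was 0.05 beside 0.02, with 21 of 39 above 0, where 51.3% of all genes were.

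Col4a4 (mm39 chr1:82426144-82564570), a chain of the type IV network of specialized basement membranes, measured 15.2, 5.90, 9.27 and 5.91 CPM in WT proximal and 4.80, 0.951, 3.69 and 0.895 in HSCR proximal libraries. The groups did not overlap, which by itself fixes the exact permutation p at 0.0286, the smallest that 4 against 4 allows. The log2 fold change was -1.83 ± 0.68. Col4a4 was the only collagen tested without overlap, beside 2.83% of all genes that were separate and lower and 2.05% separate and higher. Scaling by the plain total of counts gave overlap. Mitochondrial counts took 7.31 to 49.8% of WT proximal and 5.56 to 20.1% of HSCR proximal libraries, and with mitochondrial genes left out of the fit the log2 fold change was -1.80 ± 0.68. Within the name styles its HSCR minus WT difference was -1.85 and -1.71 log2 CPM.

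Col5a3 measured 105, 133, 82.9 and 42.3 CPM in WT proximal and 57.2, 14.8, 50.7 and 42.5 in HSCR proximal libraries (log2 fold change -1.15 ± 0.47), with WT proximal 4 inside the HSCR range. Col11a1 measured 48.3, 13.3, 68.0 and 42.4 and 5.35, 0.658, 26.5 and 6.37 CPM (-2.17 ± 0.93), with WT proximal 2 below HSCR proximal 3. Within the name styles the HSCR minus WT difference was -2.002 and -0.35 log2 CPM for Col5a3 and -3.32 and -1.99 for Col11a1, and without HSCR proximal 2 the log2 fold changes were -0.87 ± 0.36 and -1.77 ± 0.71. The difference between the segments was -0.04 ± 0.74 for Col5a3 and 0.48 ± 1.34 for Col11a1 (adjusted p = 1.00 for each in the quasi-likelihood fit over 16 libraries). Neuron markers had a lower mean in HSCR proximal libraries for 9 of 10, with summed levels of 611 to 3242 CPM in WT and 71.3 to 2719 in HSCR proximal libraries. The mean log2 CPM of this list was 2.32, 3.07, 6.53 and 6.27 in HSCR proximal libraries 1 to 4. It ran from 5.23 to 7.88 in WT proximal and from 0.41 to 5.93 in HSCR distal libraries, so HSCR proximal 1 and 2 lay below every WT proximal library. Glia markers had a lower mean for 6 of 7 (354 to 835 against 73.7 to 389 CPM), and all 8 epithelial markers had a higher mean (46.2 to 1708 against 192 to 14265 CPM). The part of these cells in the collagen values was not tested.

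The main fibrillar and microfibrillar chains were higher in 3 of 4 HSCR proximal libraries. Col1a1 measured 2220.4, 2081, 2966 and 2780.0 CPM in WT and 7318, 747, 6184 and 3992 in HSCR libraries (log2 fold change 0.84 ± 0.64, adjusted p = 0.812 by edgeR's quasi-likelihood test). Col6a1 measured 732, 686, 843 and 810.2 and 1569, 174, 1710.0 and 1595 CPM (0.70 ± 0.61), and Col6a3 561, 495, 606 and 554 and 1216, 74.4, 1633 and 889 (0.76 ± 0.71). HSCR proximal 2 lay below the WT range for each of these and the other 3 libraries above it.

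Without HSCR proximal 2, the library of low muscle markers, 8 collagens had an unadjusted p under 0.05 as higher and 3 as lower, beside 3.49% and 4.05% of all genes. The higher genes were Col1a1 (1.20 ± 0.34), Col6a3 (1.15 ± 0.27), Col8a1 (1.13 ± 0.33), Col6a1 (1.07 ± 0.23), Col1a2 (0.98 ± 0.30), Col6a2 (0.94 ± 0.23), Col5a1 (0.88 ± 0.24) and Col5a2 (0.62 ± 0.25), and the lower ones Col11a1, Col4a4 and Col5a3. The groups did not overlap for 12 higher collagens, where 5.44% of all genes were separate and higher, and for 1 lower collagen, Col4a4, where 4.35% were separate and lower. The 12 were the 8 just named with Col3a1 (0.58 ± 0.33), Col4a1 (0.67 ± 0.37), Col4a2 (0.74 ± 0.36) and Col8a2 (0.49 ± 0.28). No collagen was called (smallest adjusted p 0.454, edgeR's quasi-likelihood test), and the median was 0.67. HSCR proximal 1, one of the 3 libraries left, is the one with distal-like Hoxd13. Without that library instead, 0 collagens were higher at an unadjusted p under 0.05, and Col15a1 (-1.34 ± 0.36), Col5a3 and Col4a4 were lower, beside 2.77% and 2.92% of all genes.

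Other proximal values were spread widely. Col3a1 measured 4052 ± 621 CPM in WT and 4891 ± 2645 in HSCR libraries (0.25 ± 0.58), Col4a1 2029 ± 683 and 2491 ± 1584 (0.28 ± 0.75), and Col4a2 1357 ± 453 and 1753 ± 1111 (0.35 ± 0.76). Col1a2 had a log2 fold change of 0.66 ± 0.53, Col5a1 0.52 ± 0.59, Col5a2 0.24 ± 0.65 and Col6a2 0.60 ± 0.53. Col15a1 measured 194, 213, 181 and 186 CPM in WT and 451, 48.4, 67.1 and 116 in HSCR libraries (-0.21 ± 0.64), with HSCR proximal 1 above and the other 3 below the narrow WT range. Col18a1 (-0.92 ± 0.67), Col27a1 (-1.55 ± 0.85, but 0.03 ± 0.50 without WT proximal 2), Col25a1 (-1.17 ± 0.95), Col20a1 (-0.83 ± 0.67), Col28a1 (-0.51 ± 1.02) and Col12a1 (-0.42 ± 0.71) had a lower fitted level in HSCR. Col4a5 (0.49 ± 0.52), Col4a6 (0.97 ± 0.70), Col8a1 (0.75 ± 0.69), Col13a1 (0.99 ± 0.73), Col14a1 (0.40 ± 0.56), Col16a1 (0.14 ± 0.58), Col23a1 (0.27 ± 0.59) and Col8a2 (0.10 ± 0.67) had a higher one, none with an unadjusted p under 0.05.

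Along the WT colon, 0 of 39 collagens were called between distal and proximal libraries (background 0.0181%), and DESeq2 called 0. RUVr called 6 (background 11.1%), of which Col12a1 (-1.47 ± 0.25), Col25a1 (-1.82 ± 0.26), Col11a1 (-1.23 ± 0.29) and Col18a1 (-1.08 ± 0.32) were lower and the trace genes Col24a1 (2.04 ± 0.68) and Col6a5 (4.19 ± 1.02) higher in the distal colon. At an unadjusted p under 0.05, 0 were higher and 1 lower in the distal colon, beside 3.17% and 2.06% of all genes. That gene was Col15a1 (mm39 chr4:47208161-47313167), at 194, 213, 181 and 186 CPM in proximal and 92.1, 67.2, 144 and 127 in distal WT libraries. The groups did not overlap, beside 1.89% of all genes separate and lower and 2.47% separate and higher. That lack of overlap by itself fixes the exact permutation p at 0.0286. The log2 fold change of Col15a1 was -0.82 ± 0.27 (adjusted p = 0.906 by edgeR's quasi-likelihood test). Scaling by the plain total of counts gave overlap for it too. The proximal WT libraries carried up to 49.8% mitochondrial counts, and the part of that in the difference between scalings was not tested. The collagen median was -0.19, beside 0.03 over all genes. The main chains had log2 fold changes of -0.19 ± 0.30 (Col1a1), -0.14 ± 0.34 (Col3a1), -0.56 ± 0.51 (Col4a1), -0.64 ± 0.52 (Col4a2) and 0.18 ± 0.42 (Col6a1). Col12a1, a collagen on the surface of fibrils, measured 254, 106, 448 and 413 CPM in proximal and 58.5, 27.8, 258 and 177 in distal WT libraries (-1.20 ± 0.69), and the groups overlapped. Col27a1 measured 44.0, 477, 39.5 and 72.9 and 18.9, 34.3, 82.5 and 77.1 CPM (-1.54 ± 0.85), with WT proximal 2 far above the other 7, and the log2 fold change was 0.04 ± 0.53 without it. Col2a1, the collagen of cartilage, did not pass the filter and measured at most 0.0474 CPM in WT proximal and 0.601, 0.317, 0.198 and 0.211 in WT distal libraries, so that its groups too did not overlap at this trace level.

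Along the HSCR colon, 0 of 39 collagens were called or had an unadjusted p under 0.05, beside 0% called and 1.49% at an unadjusted p under 0.05 among all genes. DESeq2 called 0 collagens and gave an unadjusted p under 0.05 to 1, Col6a4, whose highest library was HSCR proximal 2 (edgeR -3.47 ± 1.92, and -1.18 ± 1.74 without that library). RUVr called 4 (background 1.97%), of which Col6a4 (-5.53 ± 0.84), Col22a1 (-2.96 ± 0.86) and Col26a1 (-1.86 ± 0.51) were lower and Col6a6 (3.80 ± 0.87) higher in the distal colon, the last against its direction without RUVr (-0.37 ± 1.72). No collagen was without overlap, beside 1.32% of all genes. The median was -0.44 beside -0.04 over all genes, with 11 of 39 above 0, where 47.1% of all genes were, and all 6 microfibrillar genes below 0. Col1a1 had a log2 fold change of -0.86 ± 0.80, Col3a1 of -0.28 ± 0.65, Col4a1 of -0.38 ± 0.89 and Col6a3 of -0.92 ± 0.91. Without both HSCR libraries numbered 1, which was a choice made after seeing the data, 1 collagen was higher (Col4a3, 2.73 ± 0.68) and 4 lower (Col22a1, -3.002 ± 1.25, Col28a1, -2.83 ± 1.15, Col26a1, -2.44 ± 0.71, and Col20a1, -2.35 ± 0.75) in the distal colon at an unadjusted p under 0.05, beside 1.77% and 3.14% of all genes.

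In the direct test of whether the genotype difference varied with the segment, 0 of the 41 collagens passed an adjusted or an unadjusted p of 0.05 (background 0% called and 1.44% of 18619 genes). DESeq2 and RUVr called 0 collagens (RUVr background 1.55%), and DESeq2 gave 1, Col6a5, an unadjusted p under 0.05. The smallest unadjusted p in edgeR's quasi-likelihood test went to Col4a4 (log2 difference 1.40 ± 0.76) and Col6a5 (-3.64 ± 2.02). Without both HSCR libraries numbered 1, Col4a4 (1.74 ± 0.80) and Col6a6 (4.37 ± 1.96) were higher and Col6a5 (-4.48 ± 2.05) lower at an unadjusted p under 0.05, beside 0.591% and 1.37% of all genes, and 0 were called. For Col1a1 the difference was -0.62 ± 0.85, for Col3a1 -0.08 ± 0.70, for Col4a1 0.25 ± 1.07 and for Col6a1 -0.47 ± 0.85. These SE values leave room for differences of more than 1 log2 unit in either direction.

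The chains of one collagen type kept unequal degrees of proportion across libraries. Over the 351 pairs of the 27 genes above 1 FPKM, the SD of the log2 ratio across 16 libraries had a median of 1.08. The smallest was that of Col4a1 to Col4a2, 0.12, while each gene alone varied with an SD of 1.28 and 1.33 log2 CPM. The next were Col6a2 to Col5a1 (0.24) and Col6a1 to Col6a2 (0.25). The FPKM ratio of Col4a1 to Col4a2, the chains of the common type IV molecule, was 1.45, 1.51, 1.35 and 1.39 in WT distal and 1.17, 1.34, 1.48 and 1.30 in HSCR distal libraries, and lay between 1.14 and 1.51 in all 16. These libraries share depth and composition between both genes of a pair, and the sources used here do not say whether strand was used in counting.

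The type I and type VI ratios moved more. The FPKM ratio of Col1a1 to Col1a2 was 3.01, 2.44, 3.26 and 3.31 in WT proximal, 3.44, 2.16, 3.60 and 3.42 in HSCR proximal, 2.76, 2.44, 2.36 and 1.90 in WT distal and 4.07, 2.48, 1.71 and 1.36 in HSCR distal libraries. HSCR distal 3 and 4 were the 2 lowest of the series and HSCR distal 1 the highest. The ratio of Col6a3 to Col6a1 was 0.226, 0.215, 0.233 and 0.154 in WT distal and 0.315, 0.183, 0.0962 and 0.0952 in HSCR distal libraries, again lowest in HSCR distal 3 and 4. Col1a1 to Col3a1 went the same way, at 1.26, 0.953, 0.816 and 0.716 and 1.51, 1.11, 0.732 and 0.324, with HSCR distal 4 the lowest of the 16. Col5a2 to Col5a1 was 0.652, 0.577, 0.689 and 0.593 in WT distal and 0.722, 0.775, 0.914 and 0.962 in HSCR distal libraries, without overlap. In the proximal colon it was 1.04, 0.633, 0.936 and 1.12 in WT and 0.563, 0.530, 0.787 and 1.07 in HSCR libraries, with overlap and the lower mean in HSCR. The share of all pairs without overlap was not counted, so this separation cannot be read as particular to these chains. These ratios were not tested.

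**Figure D5:**
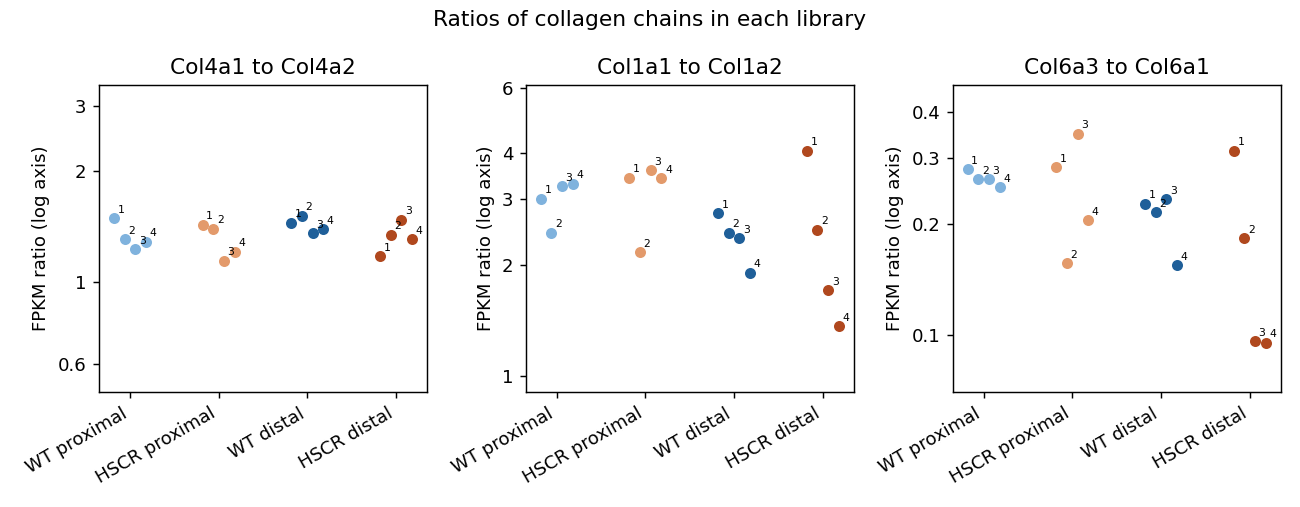
FPKM ratio of 3 pairs of collagen chains in each library on log axes of equal span, numbered within the group. Col4a1 to Col4a2 stays between 1.14 and 1.51, whereas Col1a1 to Col1a2 runs from 1.36 to 4.07 and Col6a3 to Col6a1 from 0.0952 to 0.350, with HSCR distal 3 and 4 lowest in both.

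The 14 genes at or below 1 FPKM were measured with few reads. Col17a1, the collagen of hemidesmosomes in epithelium, ran from 0 to 13.3 CPM, Col7a1, which anchors the epidermis, from 0.134 to 21.9, and Col6a4 from 0 to 52.5, with its highest value in HSCR proximal 2, the library of most epithelial counts. Col26a1 (0.900 to 16.004 CPM), Col4a3 (0 to 5.73), Col24a1 (0 to 8.005), Col11a2 (0.200 to 8.29), Col6a5 (0 to 8.05), Col6a6 (0 to 14.1) and Col22a1 (0 to 2.68) passed the filter in every comparison. A further 3 genes did not always pass it. Col10a1, of growth plate cartilage, ran from 0 to 1.94 CPM with at most 52 reads, and was not tested in the proximal and HSCR segment comparisons. Col19a1 (0 to 1.08 CPM, at most 29 reads) was tested only along the HSCR colon and between segments, and Col2a1 (0 to 1.15 CPM, at most 31 reads) only in the latter.

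Genes that modify, export, cross-link or bind collagen were read from a list of 48. In the distal colon 1 of 48 was higher and 0 lower at an unadjusted p under 0.05, beside 0.879% and 1.76% of all genes, and 0 were called. It was Lox, the lysyl oxidase that starts collagen cross-links, at 96.8, 43.4, 41.7 and 58.4 CPM in WT and 162, 83.1, 124 and 161 in HSCR distal libraries, with only the highest WT library above the lowest HSCR one (log2 fold change 1.12 ± 0.35, adjusted p = 1.00 by edgeR's quasi-likelihood test). Lum, lumican, a small proteoglycan on collagen fibrils that is named after its values were seen, was the only gene of the list without overlap in the distal colon, at 217, 227, 262 and 228 CPM in WT and 206, 149, 119.998 and 184 in HSCR libraries (-0.52 ± 0.25), beside 1.82% of all genes. In the proximal colon 1 of 48 was higher and 4 lower, beside 2.48% and 4.13% of all genes, and 0 were called. P4hb, the shared subunit of collagen prolyl 4-hydroxylase, measured 399, 258, 379 and 413 CPM in WT and 585, 679, 700.1 and 446 in HSCR proximal libraries, without overlap (0.70 ± 0.29), where 2.05% of all genes were separate and higher. HSCR proximal 2, at 679 CPM, had the lowest collagen sum, 3859 CPM, and the highest epithelial sum, 14265 CPM. The part of epithelial cells in the P4hb values was not tested. P4ha1, a catalytic subunit of collagen prolyl 4-hydroxylase, had a log2 fold change of -0.92 ± 0.41. The others were the collagen galactosyltransferase Colgalt2 (-1.76 ± 0.60, also without overlap), the procollagen N-proteinase Adamts14 (-1.48 ± 0.60) and the C-proteinase enhancer Pcolce2 (-2.24 ± 0.96). The adjusted p was 0.747 for each of the 5 in edgeR's quasi-likelihood test.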

How the data were processed

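RNA from 16 LMMP samples was analyzed. The authors aligned reads with HISAT2 2.2.1 to mm39 and counted them with featureCounts 2.0.6 (versions per the submitters' processing notes), so that the deposited counts are whole reads per gene, with no normalization. The deposited FPKM values, made by the authors, equal each count over the gene's length times a factor that differs only between libraries. The deposited columns of the authors' own comparisons (fold changes and p-values) were not used. Reads were not realigned. Library totals were 21384372 to 45831881 counts, and the biological coefficient of variation between libraries was 0.700 to 0.794.

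Libraries were grouped by their titles; the tissue entries of the 8 distal samples name the proximal colon. Counts were filtered with filterByExpr, scaled by TMM and tested with edgeR 4.0.16 (quasi-likelihood, 1 fit per comparison over the whole table, R 4.3.3), with Benjamini-Hochberg adjustment over all genes tested. The genotype by segment term was fitted over all 16 libraries. Called genes had an adjusted p under 0.05 and changed by more than 1 log2 unit. edgeR's test gives no SE, so each SE was derived as the absolute log2 fold change over the square root of the F statistic. For RUVr the likelihood ratio statistic took the place of F. Exact two-sided permutation tests used log2 CPM with a prior count of 0.5. The test was tested on simulated data first. Where nothing says that libraries are separate animals beyond the stated 4 per group, p-values weigh differences against the spread between these libraries.

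Genes named were every collagen with a mean above 1 FPKM, every collagen with an unadjusted p under 0.05 or without overlap in a comparison, those not passing the filter, and genes of the assembly list with an unadjusted p under 0.05 for genotype. The members, lists and alternatives were chosen with earlier results of these data known. Alternatives were DESeq2 1.42.0, edgeR's likelihood ratio test, RUVr with 4 factors, no filter, no mitochondrial genes, a fold change of 1.5, plain totals, a single fit over the 16 libraries, a term for the replicate number or the name style, and leaving out libraries. Replicate numbers were not used as pairs in the main fits, because the correlation of same-numbered deviations was not above 0.1 for every pair in any comparison. This cutoff cannot show that the samples were unpaired. Between distal and proximal libraries numbered 1 to 4, the WT correlations were 0.624, 0.0977, 0.444 and 0.214. The HSCR correlations were 0.0699, 0.402, 0.0727 and 0.488, so all were positive along the colon. Sequences are from RefSeq (GRCm38.p6), and transcript positions from the deposited table (mm39).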

Additional observations from a re-analysis of the deposited data

Results flagged for a closer look

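Within a group of 4 libraries, a value was taken up here when the gap of the highest or lowest library to its neighbor exceeded Dixon's critical share of the group's range in log2 CPM. Of 120 groups tested, 20 (16.7%) did. These groups are not independent, since the same libraries recur over genes that vary together, so the count cannot be set against a chance rate. HSCR proximal 2 was the lowest library for Col4a1 (gap 0.903 of the range), Col6a1 (0.962), Col4a2 (0.926), Col6a2 (0.973), Col5a2 (0.927), Col8a2 (0.900) and the sum of all collagens (0.901). HSCR distal 2 was the lowest for Col4a1 (0.854), Col4a2 (0.872), Col5a2 (0.883), Col16a1 (0.913), Col4a5 (0.863), Col12a1 (0.851) and Col4a6 (0.838). The smooth muscle sum was 4525 CPM in HSCR proximal 2, and the part of cell makeup in these values was not tested.

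HSCR distal 1 was the highest of its group for Col20a1 (0.832), HSCR distal 4 for Col23a1 (0.874) and WT proximal 2 for Col20a1 (0.926). For Col2a1, with at most 31 reads in a library, the highest stood apart in WT proximal (library 3, 1.00), HSCR proximal (library 1, 1.00) and HSCR distal (library 2, 0.857). The values of 1.00 arise because the other libraries of those groups were all at 0 CPM.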

How the results depend on the processing

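The test set the number of calls. With DESeq2, all genes called numbered 22 in the distal and 181 in the proximal genotype comparison, 48 along the WT colon, 5 along the HSCR colon and 6 for the genotype by segment term, and with the likelihood ratio test 7, 69, 32, 0 and 3. RUVr with 4 factors called 1134, 2702, 1836, 337 and 289, of which collagens 2, 8, 6, 4 and 0. The number of collagens at an unadjusted p under 0.05 was 12, 12, 16, 12 and 4 with RUVr, beside 20.6%, 31.2%, 32.5%, 11.6% and 11.3% of all genes. With DESeq2 it was 1 (distal, beside 4.96%), 4 (WT colon, 6.91%), 1 (HSCR colon, 2.82%) and 1 (genotype by segment, 2.05%). It was 1 (distal) and 2 (WT colon) with the likelihood ratio test (3.61% and 5.13%) and with no filter (3.67% and 4.87%), and 1 (distal, 3.80%) with all 16 libraries in 1 fit, which called 0 genes along the WT colon. With the name style as a term, 4 genes were called in the proximal comparison and 7 collagens (beside 10.2%) had an unadjusted p under 0.05 along the WT colon. With the replicate block, 1 gene was called along the WT colon, and such collagens numbered 7 along the WT colon (8.44%), 2 along the HSCR colon (1.70%) and 1 for genotype by segment (1.32%). The lowest correlation of same-numbered libraries was -0.25 (distal), -0.15 (proximal), 0.0977 (WT) and 0.0699 (HSCR), so the main fits did not use the numbers as pairs. These correlations cannot show that the libraries were unpaired. Without both HSCR libraries numbered 1 (chosen after seeing the data) the counts were 5 along the HSCR colon (4.91%) and 3 for genotype by segment (1.96%), and without both numbered 2, 1 along the HSCR colon (2.10%). With plain totals, collagens without overlap numbered 0 (proximal, beside 3.99% of all genes), 0 (WT colon, 5.99%) and 1 (HSCR colon, 1.08%).

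Fold changes near 0 changed sign. Distal Col1a1 was -0.079 with RUVr and -0.12 with the replicate block, and proximal Col4a1 was -0.28 and -0.21. Leaving out 1 library at a time, distal Col1a1 ran from -0.62 to 0.47, Col3a1 from -0.060 to 0.38 and Col6a1 from -0.041 to 0.67. Collagens at an unadjusted p under 0.05 then ran from 0 to 7 (distal), 0 to 11 (proximal), 1 to 4 (WT colon), 0 to 4 (HSCR colon) and 0 to 2 (genotype by segment), beside 1.94 to 5.24%, 3.96 to 9.81%, 2.605 to 6.92%, 0.840 to 5.47% and 1.20 to 3.42% of all genes, those without overlap from 0 to 4, 1 to 13, 1 to 4 and 0 to 4, and all genes called along the WT colon from 0 to 2. The collagen median ran from -0.16 to 0.31, 0.05 to 0.67, -0.40 to -0.02, -0.79 to -0.13 and -0.73 to -0.04. Apart from settings already given, no alternative called a collagen gene. The cause of these changes was not tested.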

Other observations

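Single libraries set the group mean of several low collagens. Col27a1, a fibrillar collagen of cartilage, measured 477 CPM in WT proximal 2 and 39.5 to 72.9 in the other WT proximal libraries. Col6a4, a chain that can take part in type VI collagen, measured 52.5 CPM in HSCR proximal 2 and at most 7.35 in the other 15 libraries. Col6a6 measured 14.1 CPM in HSCR proximal 1 and at most 8.08 elsewhere. Col7a1 measured 21.9 CPM in HSCR proximal 3 and at most 8.70 elsewhere. These genes were picked after their values were seen.

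The genes that varied most over the 16 libraries among those above 1 FPKM were Col25a1 (SD 1.84 log2 CPM), Col11a1 (1.77) and Col28a1 (1.65), and the least varied were Col1a2 (0.62) and Col3a1 (0.67). Within groups the same SD was 1.77, 1.44 and 1.60 for the first 3 and 0.67 and 0.74 for the last 2.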
